A study of Mus musculus with 8 samples.

Results

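The 10 genes described here, out of 46078 in the count table, encode structural proteins of the synaptonemal complex, the HORMA-domain proteins of the meiotic chromosome axis, and the enzymes that make and repair meiotic DNA breaks. They were taken by gene name from a list drawn up from their known roles in meiotic prophase, and all 10 were found once in the table. RNA-seq was performed on fully grown germinal vesicle (GV)-stage oocytes in 8 libraries of 100 oocytes each, 4 from CNOT7&8 KO oocytes and 4 from Zp3-Cre control oocytes. In the KO, floxed Cnot7 and Cnot8, paralogs that encode alternative deadenylase subunits of the CCR4–NOT complex, were deleted by a Cre recombinase under the Zp3 promoter, which is active in growing oocytes. The control carries the Cre transgene, and its Cnot7 and Cnot8 alleles are not described beyond that. Per the study's methods, females were 4 weeks old on a C57BL/6J background and oocytes were collected 2 days after an injection of pregnant mare serum gonadotropin. The question addressed here is how the transcripts of a stage that these oocytes have already passed differed between the 2 genotypes.

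In mouse females, oocytes enter meiotic prophase in the fetal ovary. SPO11 cuts DNA, the recombinase DMC1 pairs the broken ends with the homologous chromosome, and the synaptonemal complex zips the homologs together. In the complex, SYCP2 and SYCP3 form the lateral elements along each chromosome axis, SYCP1 makes the transverse filaments, and SYCE1, SYCE2 and TEX12 belong to the central element. HORMAD1 and HORMAD2 coat axes that are not yet paired and are removed as homologs synapse. The complex is taken apart around birth, when oocytes arrest at the diplotene stage, and the GV oocyte of a young adult remains in that arrest. Some maternal transcripts are translated while the oocyte grows, and others are kept dormant with short poly(A) tails. The cytoplasmic polyadenylation element (CPE) in the 3′UTR is a binding site for CPEB, a protein that governs tail length.

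The 3′UTRs of the 10 genes were searched for the CPE, because this element was at the center of the study's question on the same oocytes. The RNA form of the element is UUUUAU. Its DNA letters, TTTTAT, occurred on the sense strand in 7 of the 10 genes, as 5 copies in Sycp2, 2 each in Sycp3, Syce2 and Dmc1, and 1 each in Sycp1, Tex12 and Spo11. The site nearest to the annotated 3′ end is shown for these 7 genes as 30 bases of the GRCm38 genome, read 5′ to 3′ on the strand of the gene, with the element in capitals.
Sycp1: tttcatctgaatTTTTATtgtattcagata
Sycp2: agagattttacaTTTTATtagcccttagat
Sycp3: atttgctgaaaaTTTTATaacatttaacta
Syce2: aggttctcttgcTTTTATggcaactgatgg
Tex12: gtttttcttgatTTTTATtataaaagaaca
Spo11: ttaatttaaaatTTTTATtagaaaaactgt
Dmc1: ctacaggtgatcTTTTATattgtgttaact
The elements lie at chr3:102818641-102818646 for Sycp1, chr2:178345451-178345456 for Sycp2, chr10:88472849-88472854 for Sycp3, chr8:84888051-84888056 for Syce2, chr9:50557003-50557008 for Tex12, chr2:172993330-172993335 for Spo11 and chr15:79561547-79561552 for Dmc1. The Dmc1 element was the closest to the end of its 3′UTR, with 50 bases after it, and the Sycp3 element was the farthest, with 382 bases after it in a 3′UTR of 420 bases. The other Sycp3 site began 16 bases upstream of the one shown. Syce1, Hormad1 and Hormad2 have no TTTTAT in their longest annotated 3′UTR, of 432, 322 and 748 bases. Among 15132 tested genes whose annotated 3′UTR had 50 bases or more, 56.2% had at least 1 TTTTAT, with a median 3′UTR of 1118 bases, longer than that of any of the 10 genes. The Pumilio element TGTAAATA was found in 1 of the 10 genes, Sycp2, against 12% of the same background, and the AU-rich pentamer ATTTA in all 10, against 69.7%. Matches were counted at every position, including overlapping ones, and are letters in the annotation rather than shown binding sites.

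Counts summed to between 14943671 and 44092144 in control libraries and to between 8639444 and 26784110 in KO libraries. Levels are given as CPM (counts scaled to a common library total) after TMM scaling, which adjusts each library for its composition and gave factors of 0.849 to 0.943 in control and 1.07 to 1.14 in KO libraries. The detection floor was set at 3 counts, which made from 0.0802 CPM in the deepest library (control replicate 1) to 0.326 CPM in the shallowest (KO replicate 1) and covers counting error only. Control replicate 1 differed most from the other control libraries (chi-square per degree of freedom of 140 to 210, against 7.85 to 17.7 among the other 3, a statistic that grows with depth). The calls of the 9 tested genes did not change when it was left out alone or together with KO replicate 4, the deepest KO library. Of the targeted genes, Cnot8 was at 154 to 197 CPM in control and 33.1 to 36.1 CPM in KO libraries (log2 fold change -2.25), and Cnot7 at 886 to 1049 and 622 to 789 CPM (log2 fold change -0.38, adjusted p = 0.0105). With library size only, Cnot7 had a log2 fold change of -0.092 and did not pass the adjusted p threshold (adjusted p = 0.385). How the Cnot7 reads that remain in the KO relate to the deleted part of the gene was not tested. A gene was called when edgeR's quasi-likelihood test gave an adjusted p (false discovery rate) of at most 0.05 and the fold change was at least 2.

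Of the 10 genes, 9 had enough counts to be tested. Hormad1 and Dmc1 rose in CNOT7&8 KO oocytes, Tex12 fell, and 6 were not called. The proteins these genes encode act on the same chromosomes, but their transcripts did not move in 1 direction. Among all 19241 tested genes, 23.8% were called higher and 6.56% lower, so that 2 of 9 higher and 1 of 9 lower is a share near the background. On the adjusted p alone, Hormad1, Hormad2, Sycp3 and Dmc1 were higher and Sycp1, Syce2 and Tex12 lower, 4 and 3 of 9, against 31.2% and 24.1% of all tested genes. The CPM values of the groups did not overlap for 7 of the 9 genes, against 48.4% of all tested genes. The median log2 fold change was 0.15 for the 9 genes and 0.12 for all tested genes. The libraries hold equal numbers of oocytes, but CPM is relative to each library's total, and in bulk RNA a change in total RNA per oocyte cannot be told apart from a change in the other transcripts. The labels do not say whether replicates came from separate animals, so the p-values measure the spread between these samples, which may be partly technical.

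**Figure D1:**
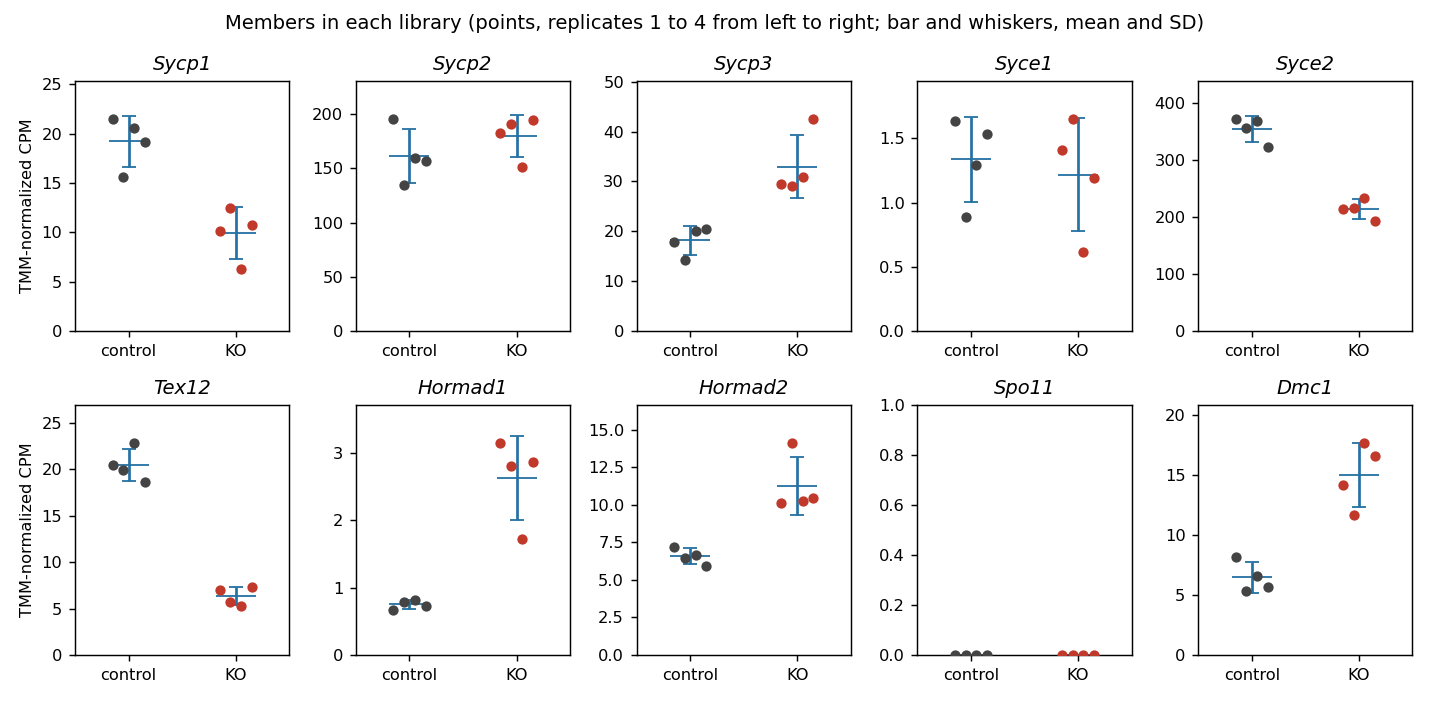
TMM-normalized CPM of each of the 10 genes (vertical axis, linear from 0, its own scale in each panel) in the 4 control and 4 KO libraries (1 point a library, with bar and whiskers for the mean and SD). The groups are apart for Sycp1, Sycp3, Syce2, Tex12, Hormad1, Hormad2 and Dmc1, they overlap for Sycp2 and Syce1, and Spo11 is at 0 in all 8 libraries.

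The lateral element genes were both well above the detection floor. Sycp2 (ENSMUSG00000060445, chr2:178345293-178407685, minus strand) encodes a large axis protein that binds SYCP3, and its transcript was among the top 8.27% of tested genes by mean CPM in control oocytes and the top 5.49% in KO oocytes. It measured 195, 135, 159.6 and 157 CPM in control replicates 1 to 4 and 183, 190.5, 151 and 195 CPM in KO replicates 1 to 4. The groups overlapped, with means of 161.5 ± 25.0 and 179.8 ± 19.7 CPM (SD, n = 4 in each group, as for the other genes), and the log2 fold change of 0.15 (SE 0.13) had an adjusted p of 0.333 in edgeR's quasi-likelihood test. With library size as the only scaling, which moved the median of all tested genes up by 0.29 on the log2 scale, Sycp2 had a log2 fold change of 0.44 and passed the adjusted p threshold (adjusted p = 0.00595).

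Sycp3 (ENSMUSG00000020059, chr10:88459569-88473236, plus strand) encodes the coiled-coil protein that makes up the bulk of the lateral element and compacts the axis. It measured 17.96, 14.2, 20.1 and 20.5 CPM in control libraries and 29.5, 29.1, 30.9 and 42.5 CPM in KO libraries. Every KO library was above every control library, and KO replicate 4 was the highest. The means were 18.2 ± 2.88 and 33.0 ± 6.37 CPM, and the log2 fold change was 0.86 (SE 0.17, adjusted p = 0.00102), below the 2-fold limit. Sycp3 lies within Chpt1, a gene of phospholipid synthesis on the opposite strand, and 660 of its 1264 exonic bases are shared with Chpt1 exons. The strand setting of the counting is not given in the sources used here, so reads of the shared bases cannot be told apart. Chpt1 itself measured 5.62 ± 1.22 CPM in control and 6.50 ± 0.714 in KO libraries and was not called (log2 fold change 0.21, adjusted p = 0.388).

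Sycp1 (ENSMUSG00000027855, chr3:102818499-102936100, minus strand) encodes the transverse filament, whose N-terminal ends meet at the middle of the complex. Its levels were 21.5, 15.6, 20.6 and 19.2 CPM in control libraries and 10.1, 12.5, 6.29 and 10.7 CPM in KO libraries, with no overlap. The KO mean was 51.6% of the control mean, and the log2 fold change of -0.95 (SE 0.20, adjusted p = 0.00186) was just short of the 2-fold limit. It reached -1.06 without KO replicate 2 and -0.76 without KO replicate 3, so 1 library decided on which side of that limit it fell. Sycp1 was thus lower while Sycp3, its partner in the same structure, was higher.

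The central element genes spanned the widest range of levels. Syce2 (ENSMUSG00000003824, chr8:84872111-84888221, plus strand), whose product extends the central element along the chromosomes together with TEX12, had the highest level of the 10 genes and stood in the top 2.88% of tested genes in control oocytes and the top 4.21% in KO oocytes. It measured 371, 356, 367 and 323 CPM in control libraries and 215, 215, 234 and 193 CPM in KO libraries. The groups were far apart relative to their SD of 22.1 and 16.8 CPM, and the log2 fold change was -0.73 (SE 0.10, adjusted p = 8.3e-05), short of 2-fold. The gene body overlaps that of Gcdh, a mitochondrial dehydrogenase gene on the opposite strand, but no exonic bases are shared. The tested genes whose log2 CPM followed Syce2 most closely were Hnrnpl (Pearson r = 0.994), Cenpu (r = 0.993) and RP24-380C2.1 (r = 0.992) over the 8 libraries, a likeness that includes the step between the 2 groups.

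Tex12 (ENSMUSG00000032065, chr9:50556819-50561325, minus strand) encodes the small coiled-coil partner of SYCE2. It measured 20.5, 19.9, 22.9 and 18.7 CPM in control libraries and 6.95, 5.71, 5.30 and 7.29 CPM in KO libraries. It had the largest decrease of the 9 tested genes, from 20.5 ± 1.77 to 6.31 ± 0.955 CPM, or 30.8% of control, a log2 fold change of -1.70 (SE 0.16, adjusted p = 4.69e-06). It ranged from -1.76 to -1.60 when any 1 library was left out. Tex12 lies within the span of Il18 on the opposite strand, with no shared exonic bases, and the level of Il18 was at most 0.714 CPM in every library. Syce1 (ENSMUSG00000025480, chr7:140777229-140787852, minus strand), which links the transverse filaments to the central element, was near the lower end of what these libraries can measure. It had 61, 18, 19 and 21 counts in control libraries and 13, 30, 10 and 35 counts in KO libraries, or 1.34 ± 0.330 and 1.22 ± 0.441 CPM. The groups overlapped, and the log2 fold change of -0.15 (SE 0.35, adjusted p = 0.74) changed sign with library size as the only scaling (0.14), with TMM restricted to genes at or above 10 CPM (0.11) and without KO replicate 3 (0.11). No difference in Syce1 was detectable at this depth.

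The HORMADs were higher in KO oocytes. Hormad1 (ENSMUSG00000028109, chr3:95559677-95587671, plus strand) encodes the axis protein that promotes break formation and recruits checkpoint kinases to unpaired axes. It had 25, 16, 12 and 10 counts in control libraries and 29, 51, 28 and 84 counts in KO libraries, or 0.668, 0.790, 0.817 and 0.728 CPM against 3.15, 2.80, 1.73 and 2.86 CPM. The lowest KO library was above the highest control library by more than the whole range of the controls. The mean rose 3.51-fold, from 0.751 ± 0.0662 to 2.63 ± 0.624 CPM, and the log2 fold change of 1.81 (SE 0.28, adjusted p = 0.000201) was the largest increase of the 9 tested genes. Hormad2 (ENSMUSG00000020419, chr11:4345814-4441105, minus strand) encodes its paralog, which acts with it on unsynapsed axes. It measured 7.19, 6.46, 6.67 and 5.90 CPM in control libraries and 10.1, 14.1, 10.2 and 10.5 CPM in KO libraries, with no overlap and with KO replicate 2 above the other KO libraries. Its log2 fold change was 0.77 (SE 0.17, adjusted p = 0.00218), short of 2-fold.

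Of the break and repair enzymes, Spo11 (ENSMUSG00000005883, chr2:172977700-172993576, plus strand), which encodes the topoisomerase-like protein that cuts DNA in early prophase, had 0 counts in all 8 libraries. A count of 0 allows up to 0.0802 CPM in control replicate 1 and up to 0.326 CPM in KO replicate 1. Dmc1 (ENSMUSG00000022429, chr15:79561497-79605109, minus strand) encodes the meiosis-specific recombinase. It measured 8.15, 5.33, 6.60 and 5.68 CPM in control libraries and 14.1, 11.6, 17.6 and 16.5 CPM in KO libraries. All KO libraries were above all control libraries, and the mean rose 2.33-fold, from 6.44 ± 1.26 to 15.0 ± 2.67 CPM (log2 fold change 1.21, SE 0.19, adjusted p = 0.000231). Leaving out any 1 library kept it between 1.13 and 1.36.

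Each of the 7 genes without overlap had an exact two-sided permutation p of 0.0286 on its CPM values (n = 4 in each group), the smallest that the 70 assignments of 8 libraries can give. Lack of overlap alone fixes this p, so it adds nothing to it, and 48.4% of all tested genes did not overlap. The exact permutation p was 0.371 for Sycp2 and 0.686 for Syce1 (n = 4 in each group). The scaling changed sizes more than directions. With library size only and with TMM restricted to genes at or above 10 CPM, which moved the median log2 fold change of all tested genes up by 0.29 and 0.25, all 9 estimates moved up. Sycp3 then reached 1.15 and 1.11 and Hormad2 1.06 and 1.03, past the 2-fold limit, which made 4 genes called higher, and Tex12 stayed called lower. Among all 19241 tested genes, 5643 and 5495 were called higher under these 2 scalings, against 4582 as reported. Under the scalings tried, only Syce1 changed sign.

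**Figure D2:**
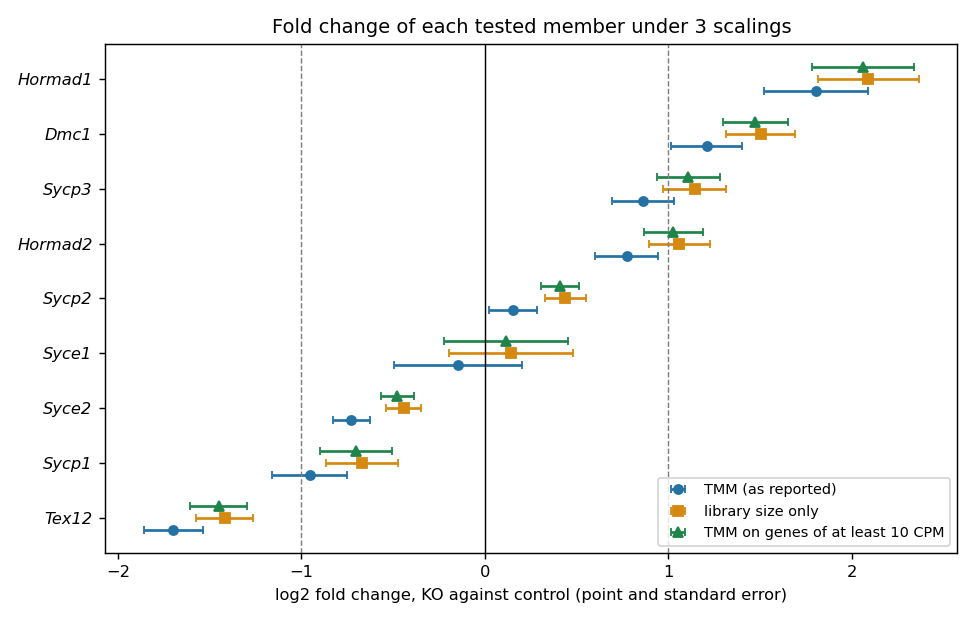
Log2 fold change of KO against control (horizontal axis) with its standard error for the 9 tested genes, under TMM scaling as reported, library size only, and TMM restricted to genes at or above 10 CPM. The solid line marks 0 and the dashed lines the 2-fold limits, and the other scalings moved all estimates to the right, with Syce1 alone crossing 0.

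Calls were not equally frequent at all levels of expression, so the 9 genes were set beside genes of like level. Among tested genes with a mean of 1 to 10 CPM, to which Syce1, Hormad1 and Hormad2 belong, 35.7% were called higher and 8.23% lower. Among those of 10 to 100 CPM, which include Sycp1, Sycp3, Tex12 and Dmc1, 12.7% were called higher and 8.30% lower. Above 100 CPM, where Sycp2 and Syce2 lie, the shares were 1.57% and 6.05%, and neither gene was called. Hormad1, with 0.751 CPM in control and 2.63 CPM in KO oocytes, was therefore called where increases were frequent, and below 1 CPM 35.5% were called higher too. Dmc1 had means of 6.44 CPM in control and 15.0 CPM in KO oocytes, on either side of the 10 CPM limit. Its own increase thus placed it in the higher range, so the lower share of increases there does not set its call apart.

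To compare levels between genes, CPM was divided by the length of the longest coding transcript. In control oocytes the order was Syce2 with 210.2 ± 13.1 CPM per kb, then Sycp2 (28.3), Tex12 (20.4), Sycp3 (15.6), Sycp1 (5.59), Hormad2 (3.33), Dmc1 (2.90), Syce1 (0.915), Hormad1 (0.497) and Spo11 (0). All neighbours in this order were apart in their ranges over the 4 libraries except Hormad2 and Dmc1. In KO oocytes Syce2 was again first with 127 ± 9.99 CPM per kb, followed by Sycp2 (31.5) and Sycp3 (28.2), whose ranges overlapped. Dmc1 (6.75), Tex12 (6.29) and Hormad2 (5.70) came next, with overlap between neighbours, then Sycp1 (2.88) and Hormad1 (1.74), which also overlapped, and Syce1 (0.834). Tex12 thus stood above Sycp3 in control oocytes and beside Dmc1 in KO oocytes, and Hormad1 and Syce1 changed places at the low end.

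**Figure D3:**
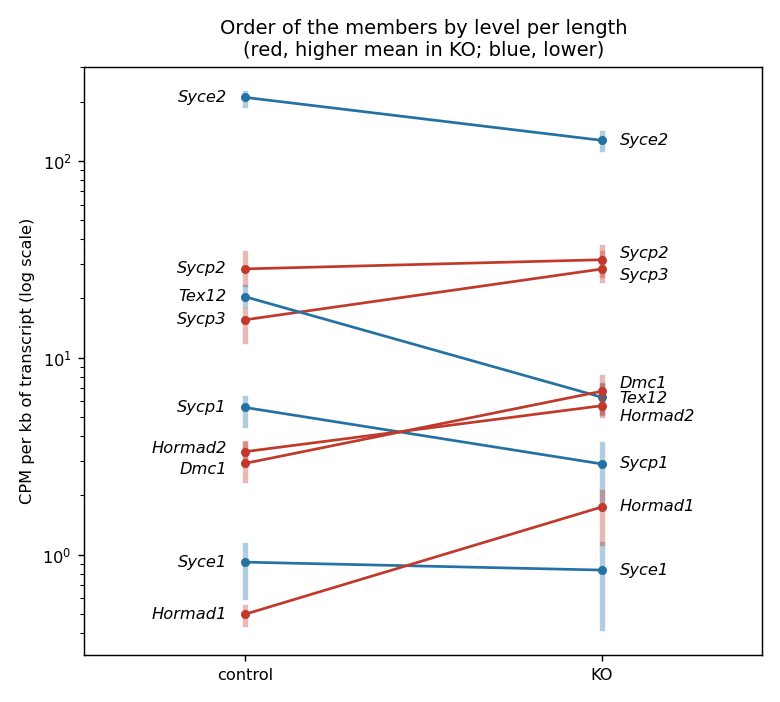
Mean level per length (CPM per kb of the longest coding transcript, log scale) of the 9 detected genes in control and KO oocytes, joined by a line for each gene, with a vertical band from the lowest to the highest of the 4 libraries. Syce2 leads in both groups, Tex12 drops from 20.4 to 6.29 CPM per kb, and Hormad1 rises from 0.497 to 1.74 and passes Syce1.

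Count ratios of 2 genes within a library do not depend on the scaling. In all, 5 pairs whose products act together were compared in this way as a description, since the pairs were picked with the values known. Tex12 had 5.53, 5.59, 6.22 and 5.78% as many counts as Syce2 in control libraries and 3.23, 2.66, 2.27 and 3.78% in KO libraries, a difference of -0.97 on the log2 scale. Sycp3 had 9.20, 10.6, 12.6 and 13.1% as many counts as Sycp2 in control libraries and 16.2, 15.3, 20.4 and 21.8% in KO libraries, a log2 difference of 0.69. Sycp1 went the other way against the same partner, with 11 to 12.9% in control and 4.16 to 6.57% in KO libraries (log2 difference -1.15). Hormad1 had 9.29 to 12.4% as many counts as Hormad2 in control and 16.9 to 31.2% in KO libraries.

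**Figure D4:**
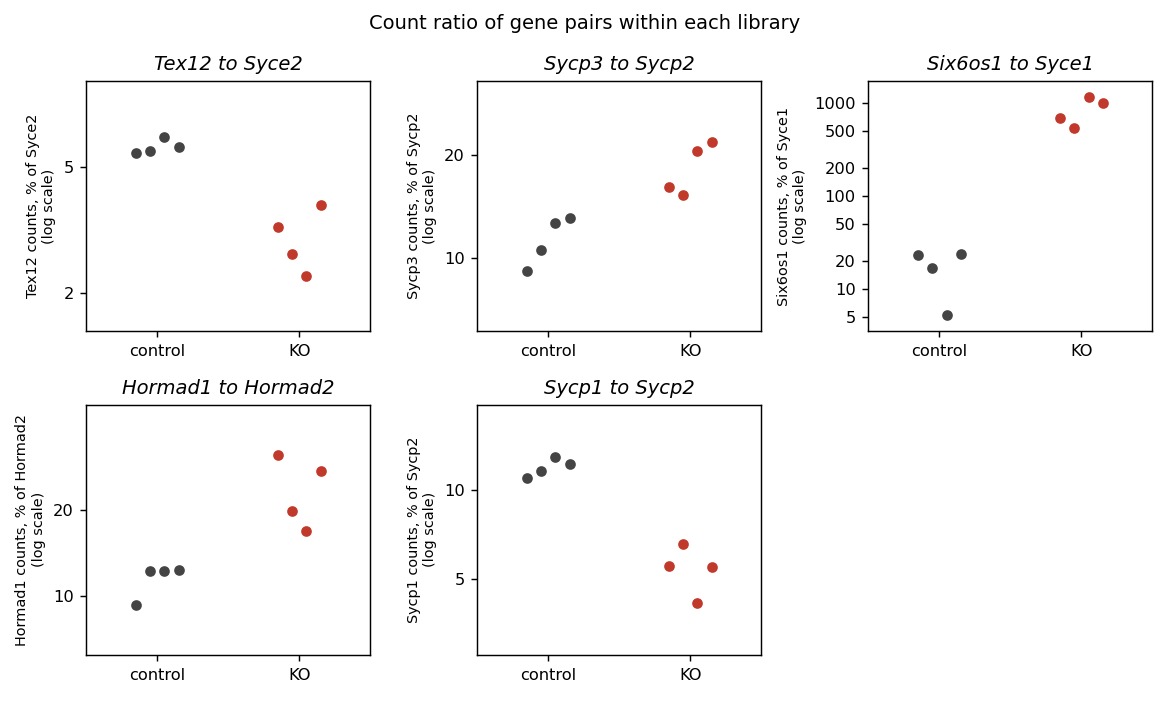
Counts of 1 gene as a percentage of the counts of a partner gene in the same library (vertical axes, log scale), in the 4 control and 4 KO libraries, for 5 pairs. Tex12 to Syce2 and Sycp1 to Sycp2 were lower in all KO libraries, and the other 3 ratios were higher.

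The 10 genes were then set beside 57 other genes of meiotic prophase, of which 56 were found in the table and 51 tested. Of these, 8 were called higher, 5 lower and 38 were not called, with a median log2 fold change of -0.18. On the adjusted p alone 14 were higher and 15 lower, and the groups did not overlap for 25 of 51. Among all tested genes, 23.8% were called higher and 6.56% lower. On the adjusted p alone the shares were 31.2% higher and 24.1% lower, and the groups did not overlap for 48.4%. At most 3 counts in every library were found for 5 genes: Syce3 of the central element, the meiotic cohesin Rec8, Spata22 and Mcmdc2 of strand exchange, and the meiotic entry gene Stra8. Like Spo11, they were at or under the floor in both genotypes.

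The largest increase among these genes was in Six6os1 (listed under its older symbol 4930447C04Rik), a further central element component that binds SYCE1. It had 14, 3, 1 and 5 counts in control libraries and 90, 161, 115 and 350 in KO libraries, or 0.239 ± 0.154 and 9.41 ± 2.01 CPM, a log2 fold change of 5.16 (SE 0.36, adjusted p = 4.83e-07). Its count was 5.26 to 23.8% of that of Syce1 in control libraries and 537 to 1150% in KO libraries. Of its 5981 exonic bases, 192 overlap Six6 on the opposite strand, which had 0 counts in all libraries. In the list of meiotic entry, 2 of 4 tested genes rose. Meioc, which encodes a partner of the RNA helicase YTHDC2 that lets germ cells leave the mitotic program, went from 4.79 ± 0.944 to 58.2 ± 10.8 CPM (log2 fold change 3.59, SE 0.20, adjusted p = 1.16e-07). Zglp1 was the other, and 1003 of the 1088 exonic bases it has are shared with another annotated gene.

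Of 7 tested genes for break formation, Top6bl, the partner subunit of SPO11, rose from 0.579 ± 0.376 to 2.53 ± 0.598 CPM (log2 fold change 2.13, adjusted p = 0.000712), Mei1 rose as well, and Prdm9 was called lower with overlapping groups. Of 10 tested genes of strand exchange, only Tex15 was called. It fell from 373.5 ± 94.8 to 96.1 ± 17.6 CPM (log2 fold change -1.96, SE 0.19, adjusted p = 4.72e-06) and was among the most abundant of these genes. Brca2 (380.4 and 336 CPM) and Brca1 (305 and 269 CPM), which load recombinases on broken DNA, were not called, with log2 fold changes of -0.18 each that turned positive under other scalings, for example with library size only (0.12 and 0.11).

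Among 14 tested crossover genes, Mlh3, which encodes a mismatch repair family protein that acts at crossover sites, rose. It went from 3.25 ± 0.908 to 18.4 ± 2.61 CPM (log2 fold change 2.48, adjusted p = 2.46e-06). Exo1, a nuclease of DNA repair, measured 233 and 174 CPM and was short of 2-fold (log2 fold change -0.42). Of 6 tested genes that attach telomeres to the nuclear envelope, Speedya rose (0.128 to 1.06 CPM, log2 fold change 2.96, SE 0.53, adjusted p = 0.000534), and Majin and Kash5 were called lower with overlapping groups. Speedya had 7, 1, 3 and 1 counts in control and 4, 19, 23 and 39 counts in KO libraries. Most of its control counts were thus at or under the 3-count floor. Before TMM scaling, no control library reached the 0.2 CPM of the filter, so Speedya was tested through the KO libraries. Speedya shares 250 of its 2198 exonic bases with a pseudogene on the same strand and 402 with Trmt61b on the opposite strand. Of 6 tested checkpoint genes, Trp63 rose (log2 fold change 1.26), while Chek1, with 685 and 415 CPM the most abundant of the 51 genes, was short of 2-fold (log2 fold change -0.72, adjusted p = 0.000478). None of the 3 tested meiotic cohesin genes was called.

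**Figure D5:**
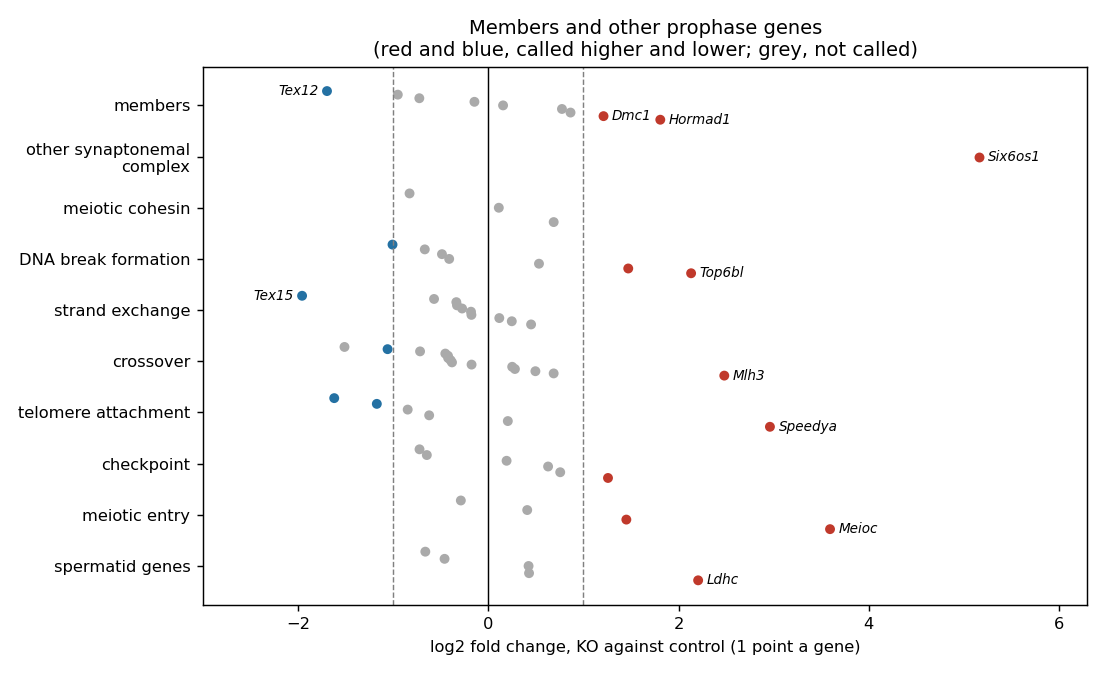
Log2 fold change of KO against control (horizontal axis, 1 point a gene) for the 9 tested genes described here, for the 8 other groups of prophase genes and for spermatid genes, with dashed lines at the 2-fold limits. Called genes lie on both sides in the top row and in the groups of break formation, crossover and telomere attachment, and Six6os1 at 5.16 is the farthest from 0.

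A list of genes expressed in spermatids was looked at for comparison. Of 12 spermatid genes, 5 were tested and 6 had at most 3 counts in every library. Only the lactate dehydrogenase gene Ldhc rose, from 14.2 ± 5.55 to 65.8 ± 4.17 CPM (log2 fold change 2.21). Its level in control oocytes shows that it is not limited to spermatids.

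Markers of other ovarian cells were measured in the same libraries. All 10 oocyte markers were tested and none was called. On the adjusted p alone 6 were lower and 1 higher, against 24.1% and 31.2% of all tested genes. The groups did not overlap for 6, against 48.4% of all tested genes. The oocyte markers had a median log2 fold change of -0.33, with Kit at -0.97, Figla at -0.63 and Zp1 at -0.58. Their summed level was 15970 to 17770 CPM in control and 13270 to 15690 CPM in KO libraries. Of 10 granulosa cell markers, 9 were tested and 5 rose (Fshr, Inha, Inhba, Nr5a2 and Ptgs2), against 23.8% called higher among all tested genes. Inha and Inhba overlapped between the groups, and Inha was at 4.77 CPM in KO replicate 4, against 26.5 to 38.4 CPM in the other KO libraries. Cyp19a1, the aromatase gene, was lower without overlap (58.5 ± 8.01 and 31.4 ± 6.03 CPM, log2 fold change -0.90, adjusted p = 0.000507), short of 2-fold. In control libraries Cyp19a1 and Nr5a2 (56.6 ± 9.28 CPM) were the most abundant of the list, with overlapping ranges. The summed level of the list was 115 to 154 CPM in control and 207 to 249 CPM in KO libraries, with the defining marker Foxl2 at no more than 1 count in any library. Theca and stroma markers, 7 tested and none called, summed to 3.27 to 6.41 and 3.48 to 5.11 CPM. Of 5 blood cell markers, 3 were tested and Ptprc and Cd68 rose, against the same 23.8% of all tested genes. Ptprc overlapped between the groups, with 1, 1, 5 and 1 counts in control and 3, 10, 18 and 14 counts in KO libraries. The blood cell markers summed to 0.8287 to 1.83 CPM in control and 3.15 to 5.37 CPM in KO libraries, with both hemoglobin genes at 0. The part of the granulosa and blood cell markers in the increases of Hormad1, Dmc1 and the other prophase genes was not tested.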

How the data were processed

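RNA of 100 GV oocytes per library was sequenced in 4 Zp3-Cre control and 4 CNOT7&8 KO libraries. Groups and replicate numbers came from the deposited labels. The authors depleted ribosomal RNA, mapped reads to GRCm38 with STAR 2.6.1d in the nf-core/rnaseq pipeline (the submitters' processing notes also name edgeR 3.11), and deposited raw read counts per gene, neither normalized nor filtered. Its counting tool, annotation and strand setting are not given in the sources used here. The labels name a stranded total RNA kit and the paper a stranded mRNA kit.

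The tool for the counts was edgeR 4.0.16 in R 4.3.3 (TMM scaling, quasi-likelihood test, Benjamini-Hochberg adjustment over all 19241 tested genes), after keeping genes with at least 0.2 CPM in 2 libraries. Of the 46078 genes, 28353 had at least 1 count. Genes were called at an adjusted p of at most 0.05 and at least 2-fold. CPM of single genes is the count over the TMM-scaled library size, and single genes were also compared with exact permutation tests. The test was checked on simulated counts. Alternatives were edgeR's exact test, DESeq2 1.42.0, 4 other scalings, 2 other filters, no fold limit, the replicate number as a block and leaving out libraries. Gene models, overlaps and 3′UTRs came from GENCODE vM21 (GRCm38), with the longest coding transcript for length and the longest 3′UTR for elements. Python 3.11.15, pandas 2.3.3 and matplotlib 3.10.9 were used.

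The 10 genes, the other prophase lists and the marker lists were chosen with earlier results of these data known. Of the other prophase genes, the text names the top 5 called increases and the top 5 called decreases by log2 fold change, where the mean reached 0.5 CPM and the groups were apart (fewer than 5 decreases met this), and the 5 with the highest mean. For likeness, the 3 genes with the highest Pearson r to Syce2 were named. Mei1, Prdm9, Zglp1, Majin, Kash5, Trp63, Ldhc, Sycp2l, the genes at or under 3 counts and the single markers were named after their values were seen. No 2 libraries of a group agreed within sampling noise (chi-square per degree of freedom from 7.85 to 210). Ankrd31 was not found in the table by name. The paper's proteome, polysome and poly(A) tail data were not analysed here, and some results of single genes are not reported here.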

Additional observations from a re-analysis of the deposited data

Results flagged for a closer look

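Single libraries that lay far from the other 3 of their group were looked for in 52 groups of 4 CPM values, with Dixon's test at the 95% level, which chance alone would give in about 2.6 groups. Of these, 6 values stood apart. Sycp3 was at 42.5 CPM in KO replicate 4, against 29.1 to 30.9 CPM in the other KO libraries, and its log2 fold change was 0.73 without that library. Hormad2 was at 14.1 CPM in KO replicate 2, against 10.1 to 10.5 CPM, and its log2 fold change was 0.67 without it. Meioc was at 42.1 CPM in KO replicate 3, against 62.0 to 65.2 CPM. Control replicate 1, the deepest library, held the other 3 values: 399 CPM for Brca1 against 268 to 283 CPM, 1049 CPM for Cnot7 against 886 to 900.2 CPM, and 127 CPM for Sycp2l against 92.5 to 97.4 CPM.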

How the results depend on the processing

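Of 162 alternative estimates for the 9 tested genes, 157 kept their direction and their side of the adjusted p threshold. Sycp2 passed it with library size only (0.44) and with TMM restricted to genes at or above 10 CPM (0.41), and Syce1 turned positive with both (0.14 and 0.11) and without KO replicate 3. Leaving out 1 library gave -1.06 to -0.76 for Sycp1, 0.076 to 0.26 for Sycp2, 0.73 to 0.94 for Sycp3, -0.31 to 0.11 for Syce1, -0.77 to -0.66 for Syce2, -1.76 to -1.60 for Tex12, 1.74 to 2.0 for Hormad1, 0.67 to 0.85 for Hormad2 and 1.13 to 1.36 for Dmc1. Called higher were 4 of the 9 genes with library size only, 4 with TMM restricted to genes at or above 10 CPM and 4 with no fold limit. Of all 19241 tested genes, 5643, 5495 and 5997 were called higher in these settings, against 4582 as reported. Called lower were 3 with no fold limit, and 1 to 2 when 1 library was left out, the added gene being Sycp1 without control replicate 2 or KO replicate 2.

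Of all tested genes, the number called higher was 2882 with at least 1 CPM in 4 libraries, fewer genes being tested, and 4233 to 4601 without 1 library. The number called lower was 587 with library size only, 628 with TMM restricted to genes at or above 10 CPM, 4631 with no fold limit, and 1032 to 1430 without 1 library. Calls were higher in 78.4% of cases as reported, 90.6% with library size only and 89.7% with TMM restricted to genes at or above 10 CPM. Among other prophase genes, 14 were called higher and 15 lower with no fold limit. The number lower was 2 with library size only, 2 with TMM restricted to genes at or above 10 CPM, 3 with upper quartile scaling (which moved the median of all genes by 0.10), 2 with at least 1 CPM in 4 libraries, and 2 to 5 without 1 library, the lowest without KO replicate 4. Brca2 turned positive with library size only (0.12), with TMM restricted to genes at or above 10 CPM (0.091) and without control replicate 1 (-0.34 to 0.085 over the libraries left out), Brca1 with library size only (0.11) and TMM restricted to genes at or above 10 CPM (0.079), and Il18 negative without KO replicate 2 (-0.0038 to 0.68 over the libraries left out). With library size only and TMM restricted to genes at or above 10 CPM, Cnot7 (-0.092 and -0.12), Gcdh (-0.17 and -0.20) and Exo1 (-0.14 and -0.17) no longer passed the adjusted p threshold, nor did Gcdh without control replicate 1 and KO replicate 4 together (-0.35). The cause of these shifts was not tested.

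Both groups use replicate numbers 1 to 4, but deviations of same-numbered libraries correlated only between -0.12 and 0.11, and 1 of 4 control libraries was nearest to its own number. No pairing by number was thus visible in the counts. The highest correlation across the groups was 0.372, between control replicate 1 and KO replicate 4, the deepest library of each group. Its source was not tested. These values cannot show whether same-numbered libraries were handled together. With the replicate number as a block, 2 of the 9 genes were again called higher and 1 lower, and 4316 of all tested genes were higher and 1254 lower. Depth limits Syce1, Hormad1 and Spo11 most, since their counts in the shallower libraries were few or 0.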

Other observations

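Sycp2l, a relative of Sycp2 that is expressed in oocytes and was looked at after its values were seen, had 127, 95.7, 97.4 and 92.5 CPM in control libraries and 38.7, 40.1, 28.7 and 34.2 CPM in KO libraries. It fell to 34.4% of the control mean, a log2 fold change of -1.54 (SE 0.15, adjusted p = 4.74e-06 in edgeR's quasi-likelihood test), while Sycp2 was not called. Syce1l, the relative of Syce1, had no more than 1 count in any library.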
